A study of Mus musculus with 2 samples.

Results

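Histone lysine demethylases were examined in DP thymocytes, immature T cells that carry CD4 together with CD8 and make up most of the thymus, with and without the CXXC finger protein Cxxc1. The set holds 10 autosomal genes chosen by symbol, out of 21041 genes in the deposited RNA-seq table, and all 10 were found there. They were grouped by the histone mark that their product removes. *Kdm1a*, *Kdm1b*, *Kdm5a* and *Kdm5b* act on H3K4, *Kdm2a* and *Kdm2b* on H3K36, *Kdm3a*, *Kdm3b* and *Kdm4a* on H3K9, and *Kdm6b* on H3K27. One mRNA library was made from WT mice, which in this study carry the floxed *Cxxc1* alleles without Cre (*Cxxc1* fl/fl), and one from *Cxxc1*-deficient mice, whose genotype is *Cxxc1* fl/fl h*CD2*-Cre and where Cre driven by a human CD2 transgene removes part of *Cxxc1* from early thymocytes onwards and also in other immune cells. The floxed allele, which both groups carry, was made in strain 129 and backcrossed to C57BL/6, and mice in the study were of about weaning age unless stated otherwise. The genotype label of the deficient sample reads Cxxc1+/-, so the library was grouped by its title. Whether the RNA was pooled from several mice is not given in the sources used here.

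Methyl groups on histone lysines are placed by methyltransferases and taken off by demethylases of 2 families. KDM1A and KDM1B are flavin-dependent amine oxidases, which can only remove the lower methylation states, whereas the other 8 gene products carry a JmjC domain that needs iron and 2-oxoglutarate, a chemistry that in some of them, such as KDM4A, KDM5A and KDM6B, also removes trimethylation. Cxxc1 binds unmethylated CpG dinucleotides and belongs to the Setd1 complex that writes H3K4me3, so KDM5A and KDM5B, which erase H3K4me3, act against the modification that this complex makes. KDM2A and KDM2B carry a CXXC zinc finger of the same kind as the DNA-binding domain of Cxxc1.

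The deposited values are normalized expression values rounded to whole numbers. Their unit is not named, and the number of reads behind them is unknown, so no counting interval is given. With 1 library per genotype there is no replicate, no test was run, and every difference compares 2 libraries rather than 2 genotypes. Fewer cells of a type and less RNA per cell cannot be told apart in such bulk samples. *Cxxc1* itself was listed at 91 in WT against 50 in the deficient library. Its log2 ratio of deficient to WT was -0.33 relative to the median of genes of like level. The paper found *Cxxc1* mRNA almost undetectable by qPCR in deficient DP cells and reports deletion of the protein there. Cre removes only part of the gene, and the deposited value does not show which exons were read. It is thus no measure of the remaining functional *Cxxc1*. All 9 markers of DP thymocytes were listed above 0 in both libraries, with sums of 36410 in WT against 9836 in the deficient library. Most of these sums came from *Rag1*, with 20778 and 5058. The summed markers were 183 and 149 for B cells (6 genes), 236 and 235 for macrophages and dendritic cells (6 genes), 262 and 207 for thymic epithelium and stroma (7 genes), 209 and 142 for NK and innate lymphoid cells (5 genes) and 104 and 129 for erythroid cells (5 genes), in WT and deficient cells in that order. *Hba-a1* was listed at 0 in both libraries and *Krt8* at 0 in *Cxxc1*-deficient cells. The part of these cell types in the demethylase values was not tested. Genes of olfactory receptors, which thymocytes are not known to use, had a median of 22 in WT against 24 in the deficient library over 1122 genes, taken here as the level at which a silent gene is listed. Their 95th percentile was 54.0 in WT and 57 in the deficient library. In the deficient library *Cxxc1* (50) and *Ptcra* (44) lay under it. So did most markers of the cell types other than DP thymocytes in both libraries, and the sums of those markers are no measure of cell content.

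The promoters of these genes are shown first, because the CpG dinucleotide is the DNA sequence that Cxxc1 recognises. RefSeq promoter windows on GRCm38.p6 were found for 6 of the 10 genes, namely *Kdm1a*, *Kdm1b*, *Kdm2b*, *Kdm3a*, *Kdm4a* and *Kdm5b*. No window was found for *Kdm2a*, *Kdm3b*, *Kdm5a* and *Kdm6b*. The 250 bases before the start are printed for the 4 genes with a single annotated window, 5′ to 3′ on the strand of the gene, with every CpG in capitals. They are chr4:136602724-136602973 on the minus strand for *Kdm1a*, chr13:47043249-47043498 on the plus strand for *Kdm1b*, chr1:134559928-134560177 on the plus strand for *Kdm5b* and chr4:118180044-118180293 on the minus strand for *Kdm4a*.
Kdm1a: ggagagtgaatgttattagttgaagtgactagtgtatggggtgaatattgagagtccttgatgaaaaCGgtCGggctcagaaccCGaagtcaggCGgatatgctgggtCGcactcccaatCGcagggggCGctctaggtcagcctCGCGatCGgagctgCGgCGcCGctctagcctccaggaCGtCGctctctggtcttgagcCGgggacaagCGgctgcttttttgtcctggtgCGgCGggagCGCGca
Kdm1b: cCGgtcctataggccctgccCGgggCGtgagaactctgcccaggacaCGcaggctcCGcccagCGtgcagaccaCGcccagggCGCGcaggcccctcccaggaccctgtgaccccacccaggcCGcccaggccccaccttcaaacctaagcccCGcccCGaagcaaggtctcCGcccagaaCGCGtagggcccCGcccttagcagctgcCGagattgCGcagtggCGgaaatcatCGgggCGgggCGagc
Kdm5b: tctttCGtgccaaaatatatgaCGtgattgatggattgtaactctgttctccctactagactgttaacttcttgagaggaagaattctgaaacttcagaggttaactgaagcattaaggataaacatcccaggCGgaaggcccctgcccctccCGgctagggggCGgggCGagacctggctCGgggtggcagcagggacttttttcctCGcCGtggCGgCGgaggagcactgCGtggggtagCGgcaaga
Kdm4a: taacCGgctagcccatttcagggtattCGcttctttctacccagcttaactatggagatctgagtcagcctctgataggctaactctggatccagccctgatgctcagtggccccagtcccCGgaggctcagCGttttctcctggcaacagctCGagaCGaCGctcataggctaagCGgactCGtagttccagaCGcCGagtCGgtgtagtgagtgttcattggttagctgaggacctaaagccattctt

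The windows of *Kdm1a* and *Kdm1b* held 21 and 22 CpG, that of *Kdm5b* 13 and that of *Kdm4a* 12. Across 32851 windows of the same length the median was 6 CpG, and 92.1% held at least 1, counted on the printed strand, which gives the same number on the other strand. At least as many as in *Kdm1a* were found in 16.3% of all windows, and at least as many as in *Kdm4a* in 33.5%. The CpG lay along the whole window of *Kdm1b*, whereas in *Kdm1a* the first one followed a run of bases without any. The 4 annotated windows of *Kdm2b* held from 12 to 38 CpG, and of the 3 of *Kdm3a* one held 0 and the others 20 and 31. The windows belong to different transcripts, and the deposited table does not say which start was used in these cells. The count describes the sequence and says nothing about the binding of Cxxc1, which was not examined here. In DP thymocytes the paper found only a small part of the Cxxc1 sites in promoters or at CpG islands. It also reports enriched binding at transcription starts and at the centres of CpG islands. In the paper, a gene ontology table of Cxxc1-bound genes that changed at least 2-fold names *Kdm1a*, *Kdm3a* and *Kdm3b* of this set. That table covers a few terms only, so it does not tell whether the other genes were bound.

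All 10 demethylase genes had a lower deposited value in *Cxxc1*-deficient than in WT DP thymocytes, but only 9 did so once both libraries had an equal 75th percentile, 7 once they had equal sums apart from the 100 most abundant genes and 4 with the same median over abundant genes, those with a mean of 100 or more. Over the 20125 genes above 0 in at least 1 library, 59.9% were lower as deposited. The summed value of the 10 genes was 2238 in WT against 1162 in the deficient library, a ratio of 0.519. Their median log2 ratio was -0.95, against -0.20 for all genes. The distance between these medians, -0.75, is the same under each of the 4 scalings, which multiply one library by a factor. Each of the 10 genes lay below the median of all genes as deposited and under these scalings. With the olfactory receptor median subtracted 9 did, as *Kdm6b* was at -0.38 beside -0.44 for all genes. At least 2-fold lower were 4 of the 10 genes, *Kdm5a*, *Kdm1a*, *Kdm5b* and *Kdm3a*, beside 17.4% of all genes. This count was 1 (*Kdm5a*) with the same 75th percentile, where 8.86% of all genes were past 2-fold, and 7 after the olfactory receptor median was subtracted from each library, where 37.4% were and where *Kdm2b* counts only because its value fell under the subtracted median. None of the 10 was at least 2-fold higher, beside 5.89% of all genes. At 1.5-fold 7 of the 10 were lower, beside 31.9%, and at 3-fold 0, beside 6.3%. On the log2 scale, equal medians shifted all genes by 0.04, equal 75th percentiles by 0.39, equal sums by 0.56 and equal medians of abundant genes by 1.0, and the subtraction moved it by -0.24.

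**Figure D1:**
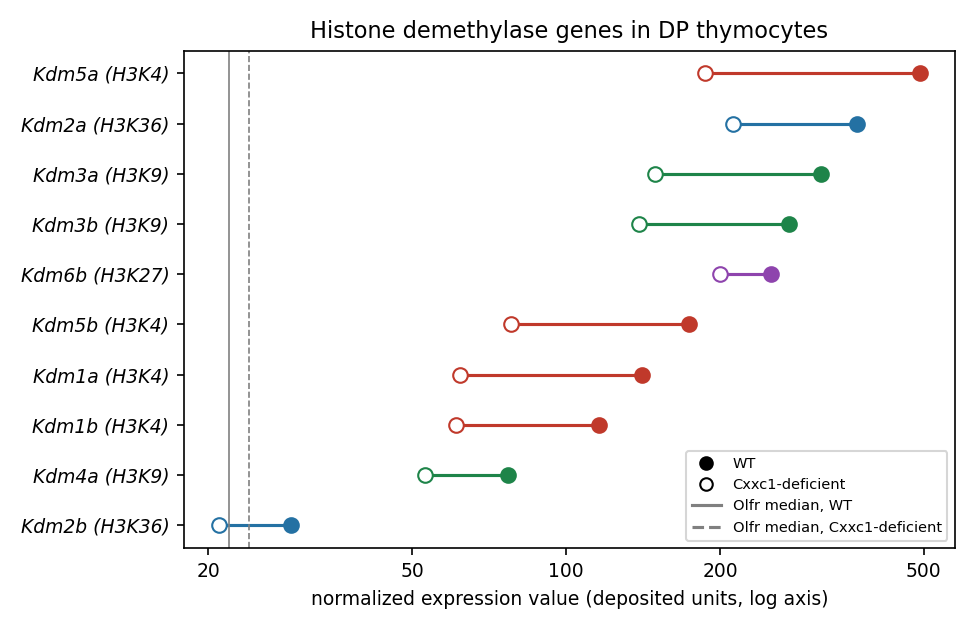
Normalized expression value (log axis, deposited units) of each demethylase gene in the WT library (filled) and the *Cxxc1*-deficient library (open), coloured by the histone mark removed, with grey lines at the median of olfactory receptor genes (Olfr). All 10 open points lie to the left of the filled ones as deposited (9, 7 and 4 of 10 under 3 other scalings), with the longest distance for *Kdm5a* (491 and 187) and the shortest for *Kdm6b* (251 and 200), and *Kdm2b* lies near the grey lines.

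The ratio of these libraries depends on the level of a gene, so each demethylase was also set beside all genes of its class of mean value. The median log2 ratio was 0 over the 13996 genes with a mean under 50, -0.53 over 3657 genes from 50 to 100, -1.0 over 1605 genes from 100 to 200, -1.22 over 703 genes from 200 to 500 and -1.61 over 164 genes of at least 500. Of the genes in these classes 47.8%, 82.6%, 94.7%, 96% and 96.3% were lower at all. At least 2-fold lower were 9.75%, 20%, 50.1%, 65.9% and 84.1% of them. Of the demethylase genes, 1 was in the first class, 2 in the second, 2 in the third and 5 in the fourth. Relative to their classes, 6 of the 10 genes were below and 4 above the class median, and the median distance was -0.08. The low values of the set were thus close to those of other genes at the same level. From 100 to 200, both demethylase genes were at least 2-fold lower beside 50.1% of the class, and from 200 to 500, 2 of the 5 were beside 65.9%.

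**Figure D2:**
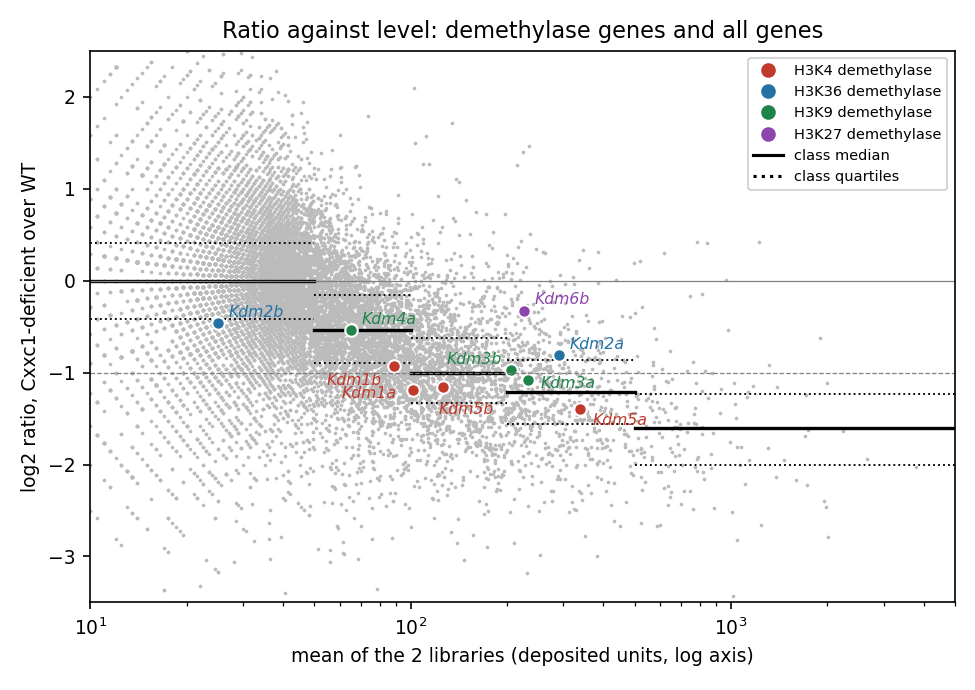
Log2 ratio of *Cxxc1*-deficient to WT (vertical axis) against the mean of the 2 libraries (log axis, deposited units) for all genes in grey and the 10 demethylase genes in colour, with the median (solid) and the quartiles (dotted) of each class of mean value. The 4 H3K4 demethylases lie below the median of their classes and 4 of the other 6 genes above it, with *Kdm6b* 0.89 above; the vertical position of zero depends on the scaling of the libraries.

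The H3K4 demethylases had the lower median log2 ratio in the set, and they overlapped with the H3K9 genes. *Kdm5a*, a trimethyl-H3K4 demethylase first known as a partner of the retinoblastoma protein, lies on chromosome 6 (mm9) from 120314117 to 120394592 on the plus strand, in 28 exons in its longest annotated transcript. It had 491 in WT against 187 in the deficient library, a fold reduction of 2.63. It had the highest value of the set in WT and the third highest in *Cxxc1*-deficient cells. *Kdm5b*, its close relative, is on chromosome 1 from 136456748 to 136529454 on the plus strand. It had 174 in WT against 78 in the deficient library, a fold reduction of 2.23. Within each library *Kdm5a* exceeded *Kdm5b*, by 2.82-fold in WT and by 2.40-fold in *Cxxc1*-deficient cells. *Kdm5a* shares 276 bases, or 1.95% of its annotated exonic bases, with *Ccdc77* on the opposite strand, which had 46 in WT against 29 in the deficient library. Counting by strand is not stated, so reads on these bases cannot be assigned. *Kdm2b* shares 1.68% of its exonic bases with *A930024E05Rik* and *Kdm3b* shares 0.687% with *Gm17557* in the same manner.

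*Kdm1a* encodes LSD1, the catalytic subunit of the CoREST repressor complex, and is on chromosome 4 from 136106455 to 136158638 on the minus strand. Its value was 141 in WT against 62 in the deficient library, a fold reduction of 2.27. *Kdm1b*, which encodes the second flavin-dependent demethylase LSD2, is on chromosome 13 from 47138868 to 47179982 on the plus strand. This gene had 116 in WT against 61 in the deficient library, a fold reduction of 1.90. In *Cxxc1*-deficient cells both lay close to the upper range of silent genes, since 2.85% of olfactory receptor genes reached 62 and 3.30% reached 61, whereas none of the 1122 reached the WT value of either gene. The log2 ratios of the 4 H3K4 demethylases ran from -1.39 to -0.93, with a median of -1.17, and the summed values were 922 in WT against 388 in the deficient library. Relative to the classes of like level, all 4 were lower, by 0.16 to 0.39 on the log2 scale, with values of -0.19 for *Kdm1a*, -0.39 for *Kdm1b*, -0.18 for *Kdm5a* and -0.16 for *Kdm5b*. All 4 also lay below their class medians with 10 classes holding equal numbers of genes and with the geometric mean as level, with median distances of -0.22 and -0.29. These distances were small beside the spread of single genes. In the class of *Kdm5a*, 273 of 703 genes (38.8%) had a log2 ratio at least as low. In the class of *Kdm1b*, the farthest from its median, the share was 23.3%.

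The 6 genes for H3K36, H3K9 and H3K27 had a median log2 ratio of -0.67, with a range from -1.08 to -0.33. The median of the H3K4 genes was lower by 0.50 on the log2 scale, a difference of -0.50. This difference does not depend on the scaling of the libraries. It was -0.35 with *Kdm2b*, which has been linked to both H3K36 and H3K4, counted among the H3K4 demethylases. Relative to the level classes it was -0.37, a comparison chosen after the data were seen. All these values include *Kdm2b* (29 and 21), which could not be told from the level of silent genes. Without it the middle log2 ratio of the other group is that of *Kdm2a* (-0.81), nearer to the H3K4 median of -1.17. The 2 groups overlapped, as *Kdm3a* (-1.08) and *Kdm3b* (-0.97) had lower log2 ratios than *Kdm1b* (-0.93). Genes of a set are not replicates, so the difference was not tested.

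*Kdm2a*, which removes the lower methylation states of H3K36 at CpG islands, is on chromosome 19 from 4316170 to 4398266 on the minus strand. It had 371 in WT against 212 in the deficient library, a fold reduction of 1.75. It was the second highest of the set in WT and the highest in *Cxxc1*-deficient cells. Relative to its class its log2 ratio was 0.41 higher. *Kdm2b*, which brings the variant Polycomb complex PRC1.1 to CpG islands, is on chromosome 5 from 123320677 to 123465089 on the minus strand. Its value was 29 in WT against 21 in the deficient library, the lowest of the set in both. In WT 38.4% of olfactory receptor genes and in *Cxxc1*-deficient cells 52.6% reached its value, so the expression of *Kdm2b* could not be told from the level of silent genes and no direction can be read for it.

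*Kdm3a* and *Kdm3b* encode demethylases of mono- and dimethylated H3K9. *Kdm3a* is on chromosome 6 from 71538968 to 71582899 on the minus strand, with a value of 315 in WT against 149 in the deficient library and a fold reduction of 2.11. *Kdm3b*, on chromosome 18 from 34936662 to 34999024 on the plus strand, had 273 in WT against 139 in the deficient library, a fold reduction of 1.96, just under the 2-fold threshold. The paper lists *Kdm3a* and also *Kdm3b* among its Cxxc1-bound genes that changed at least 2-fold. The pair stayed at nearly the same proportion within each library, with 1.15 of *Kdm3a* to *Kdm3b* in WT against 1.07 in the deficient library. *Kdm4a*, which acts on trimethylated H3K9 and H3K36, is on chromosome 4 from 117809562 to 117852648 on the minus strand. It had 77 in WT against 53 in the deficient library, a fold reduction of 1.45 that equals the median of its class within 0.01 on the log2 scale, with a distance of -0.0050. In *Cxxc1*-deficient cells 9.09% of olfactory receptor genes reached its value.

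*Kdm6b* (JMJD3), an H3K27 demethylase known as a gene that is induced by stimulation of immune cells, showed the smallest difference between the libraries. The gene is on chromosome 11 from 69212010 to 69227177 on the minus strand. It had 251 in WT against 200 in the deficient library, a fold reduction of 1.26. Genes of its class had a median log2 ratio of -1.22, and that of *Kdm6b* was -0.33, which is 0.89 higher. In this class of 703 genes, 50 (7.11%) had a log2 ratio at least as high. Its direction turned under other scalings, with log2 ratios of 0.06 (same 75th percentile), 0.23 (same sum without the 100 genes) and 0.67 (same median over abundant genes). *Kdm6b* shares 286 bases, 4.11% of its exonic bases, with the noncoding transcript *1700064E03Rik* on the other strand. *Kdm6a*, the X-linked enzyme for the same mark, had 255 in WT against 136 in the deficient library and lay 0.09 above its class median.

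The make-up of the set within each library is free of the scaling between them. *Kdm5a* took 21.9% of the summed value of the 10 genes in WT against 16.1% in the deficient library. *Kdm6b* took 11.2% and 17.2%, and moved from the fifth to the second place in the order of values. The value of *Kdm5a* was 1.96 times that of *Kdm6b* in WT and 0.935 times in *Cxxc1*-deficient cells. *Kdm5b*, *Kdm1a*, *Kdm1b*, *Kdm4a* and *Kdm2b* kept their places at the lower end in both libraries. The H3K4 genes together made up 0.701 of the sum of the other 6 in WT against 0.501 in the deficient library. Levels of different genes are compared here as deposited. The unit is not named, but the median value of genes increased by 1.89-fold in WT over a 6.11-fold increase in transcript length between the shortest and the longest of 5 classes, so the values do not grow in proportion to length.

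**Figure D3:**
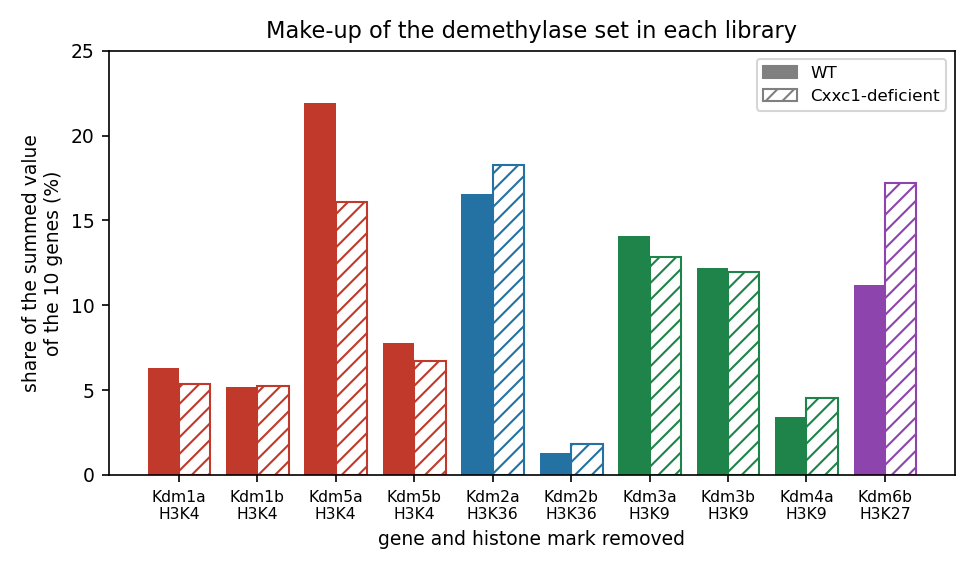
Share of each gene in the summed deposited value of the 10 demethylase genes (%), in the WT library (filled bars) and the *Cxxc1*-deficient library (hatched bars), by gene and histone mark. The share of *Kdm5a* is 21.9% and 16.1% and that of *Kdm6b* 11.2% and 17.2%; the shares do not depend on the scaling of the libraries.

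Further histone demethylases were followed in a list of 15 genes, of which 14 were matched. Of these, 11 were lower and 3 higher in *Cxxc1*-deficient cells, and 5 were at least 2-fold lower as deposited, beside 59.9% lower and 17.4% at least 2-fold lower over all genes. Relative to the level classes the median was -0.12. The median log2 ratio over the 12 genes above 0 in both libraries was -0.73, which is 0.52 below that of all genes (-0.52), and 11 of the 12 lay below the median of all genes, a count that no scaling changes. The PHD finger demethylases of H3K9 *Phf2* (584 in WT against 257 in the deficient library) and *Phf8* (185 and 80) and the related *Kdm7a* (270 and 128), together with *Kdm4c* (196 and 88), had fold reductions of 2.27, 2.31, 2.11 and 2.23. *Jmjd1c*, the relative of *Kdm3a* and *Kdm3b*, had 411 in WT against 303 in the deficient library. Like *Kdm6b* it was far above its class median, by 0.78, with 9.25% of the class at least as high. The Y-linked genes *Kdm5d* and *Uty* were listed at 0 in WT and at 39 and 17 in *Cxxc1*-deficient cells, and X-linked *Kdm5c* had 92 and 63. *Mina*, the third gene counted as higher, had 32 and 57. In the deficient library the values of *Kdm5d*, *Uty* and *Mina* did not exceed the 95th percentile of olfactory receptor genes, which was 57. No direction can thus be read for them. Nor can it for *Kdm4b* (49 and 35), *Kdm4d* (18 and 9) and *Hr* (36 and 28), which were under that percentile in both libraries. They still count among the genes lower and below the median of all genes, and *Kdm4d* among those at least 2-fold lower. *Kdm8* (56 and 40), also counted as lower, was under it in the deficient library only. These genes and *Kdm5c* were named after their values were seen. The sex of the mice is not given in the sources used here, and a difference in sex between the 2 libraries was not tested. With 1 library per genotype it could not be told apart from genotype, also for the X-linked genes *Phf8*, *Kdm5c* and *Kdm6a*.

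Partners of KDM1A were lower relative to all genes as well. Of 13 genes of the CoREST complex and its recruiting factors, 12 were lower and 7 at least 2-fold lower as deposited. Over all genes the shares were 59.9% and 17.4%. Past 2-fold were 9.75% of genes with a mean under 50, 20% from 50 to 100 and 50.1% to 65.9% from 100 to 500. Below the median of all genes lay 12 of the 13 under any scaling. Their median log2 ratio was -1.0, and -0.49 relative to the level classes, with 9 of 13 below. The deacetylase gene *Hdac2* had 389 in WT against 89 in the deficient library, a fold reduction of 4.37, and *Hdac1*, named after its value was seen, had 53 and 12. The 95th percentile of olfactory receptor genes was 54.0 in WT and 57 in the deficient library. Neither value of *Hdac1* could thus be told from the level of silent genes, and no direction can be read for it. The same holds for *Hmg20b* (53 and 27) and *Gfi1b* (27 and 38). *Rcor2* (56 and 28), *Rcor3* (72 and 46) and *Zmym3* (112 and 55) were under the percentile in the deficient library only. *Hdac1*, *Rcor2* and *Zmym3* still count as at least 2-fold lower. The class distances of *Hdac1*, *Rcor2*, *Hmg20b* and *Gfi1b* were -2.14, -1.0, -0.97 and 0.49, so the median of -0.49 rests in part on such genes. These genes were also named after their values were seen. The repressor *Gfi1* (194 and 63), which recruits LSD1, had a fold reduction of 3.08. *Zmym2* (306 and 139) had a fold reduction of 2.20, close to *Kdm1a* itself. The scaffold gene *Rcor1* (137 and 99) and *Gse1* (279 and 221) had fold reductions of 1.38 and 1.26. *Hdac1* and *Hdac2* also belong to several other complexes, and the paper lists both among its Cxxc1-bound genes that changed at least 2-fold.

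For KDM2B, 8 of 9 PRC1.1 partner genes were lower and 1 was equal as deposited, beside 59.9% of all genes lower. The share was 82.6% to 96% in the classes of mean value from 50 to 500 and 47.8% under 50. *Pcgf1* (5 and 0), *Rybp* (1 and 1), *Ring1* (52 and 23) and *Bcorl1* (39 and 38) had means under 50. Their values did not exceed the 95th percentile of olfactory receptor genes (54.0 in WT, 57 in the deficient library), so no direction can be read for them. Of the 8 genes above 0 in both libraries, 6 lay below the median of all genes. Relative to the level classes the median of the list was -0.02. *Skp1a*, which also serves the ubiquitin ligases of the SCF type, had 494 in WT against 159 in the deficient library. *Usp7*, a deubiquitinase, had 438 and 188, and *Rnf2*, a catalytic subunit of PRC1, had 174 and 99. Their distances from the class medians were -0.42, -0.0042 and 0.19.

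The methyltransferases that write H3K4 methylation had higher log2 ratios of deficient to WT than the 4 H3K4 demethylases of the set, which no scaling changes. X-linked *Kdm5c*, outside the set, overlapped with them, at -0.55 beside -0.79 for *Kmt2c* and -0.56 for *Kmt2b*. Their median log2 ratio over 6 genes was -0.14, and 5 of the 6 lay above the median of their classes. *Setd1b*, a catalytic subunit of the complex that contains Cxxc1, had 94 in WT against 125 in the deficient library, and *Kmt2a* (MLL1) had 201 and 229. At least as high a log2 ratio was found for 1.81% and 2.28% of the genes in their classes. *Kmt2d* had 161 and 152 and *Kmt2c* had 303 and 175. *Setd1a*, the other Setd1 gene, had 96 and 84, and *Kmt2b* had 84 and 57, and both were named to complete the 6. The summed values were 939 in WT against 822 in the deficient library. The ratio of this sum to that of the 4 H3K4 demethylases was 1.02 in WT against 2.12 in the deficient library. With *Kdm5c* and *Kdm5d* added to the demethylases it was 0.926 and 1.68. These ratios were chosen after the values were seen, and they describe mRNA values and not enzymes. They are taken within a library and so do not depend on the scaling. The paper measured SETD1 protein and total H3K4me3 directly and found both much lower in *Cxxc1*-deficient DP thymocytes.

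For the other 3 marks as 1 group the medians of writers and erasers lay close to each other. All 13 methyltransferases of H3K36, H3K9 and H3K27 were lower as deposited, beside 59.9% of all genes. The share was 82.6% to 96% in the classes of mean value from 50 to 500, where all 13 lay. All 13 were also below the median of all genes, which no scaling changes. Relative to the level classes their median was 0.09, with 7 above and 6 below. Their median log2 ratio of -0.73 was near that of the 6 demethylases of these marks (-0.67). *Ezh2*, the main H3K27 methyltransferase, had 477 in WT against 132 in the deficient library, a fold reduction of 3.61. The H3K36 methyltransferase *Setd2* (342 and 176), *Nsd1* (309 and 164), *Whsc1l1* (297 and 180), *Ash1l* (318 and 213) and *Whsc1* (181 and 153) had fold reductions from 1.94 for *Setd2* to 1.18 for *Whsc1*.

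**Figure D4:**
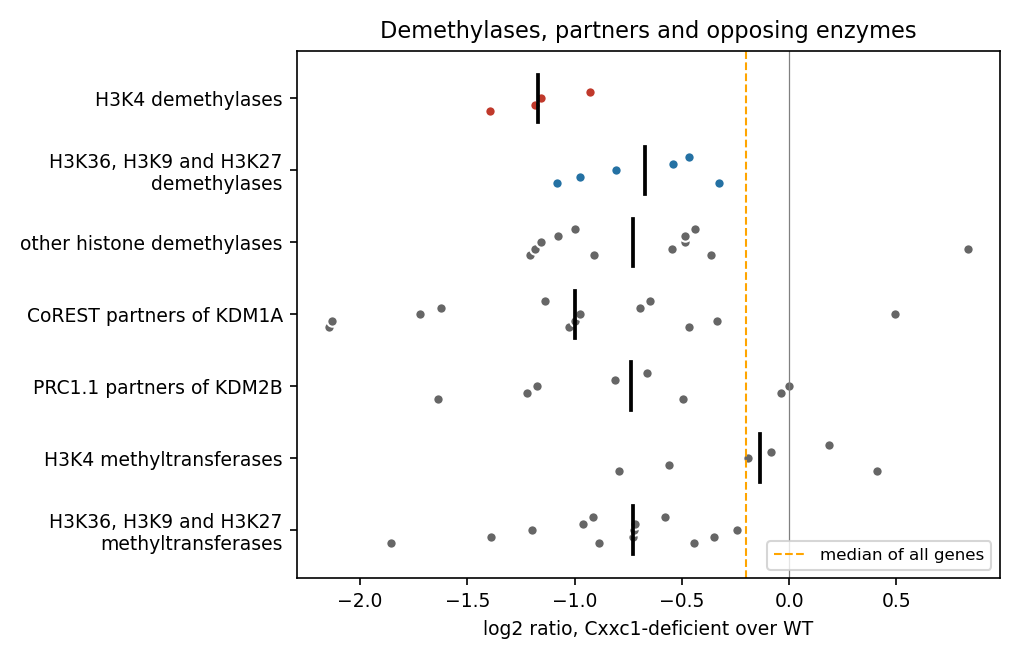
Log2 ratio of *Cxxc1*-deficient to WT for each gene above 0 in both libraries (points), with the median of each list (black bar), the median of all genes (dashed line) and no change in the deposited values (grey line). The medians are -1.17 for the H3K4 demethylases, -0.67 for the other 6 genes of the set and -0.14 for the H3K4 methyltransferases; another scaling moves all points and the dashed line together, and the grey line stays.

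The order of the log2 ratios of the demethylase genes was kept under every scaling, and only their position against zero moved. *Kdm5a*, *Kdm1a*, *Kdm5b* and *Kdm3a* had a lower value in *Cxxc1*-deficient cells in each of the 7 other settings, which are the 4 scalings, pseudocounts of 1 and 10 and the subtraction of the olfactory receptor median. *Kdm1b*, *Kdm2a* and *Kdm3b* turned in 1 of the 7, *Kdm2b* and *Kdm4a* in 2 and *Kdm6b* in 3. Over all genes, 59.2% were lower once medians were equal, 40.2% once the 75th percentiles were, 32.5% once the sums were, 17.4% with the same median over abundant genes, 60% with either pseudocount and 58.2% after the subtraction. At least 2-fold lower were 16%, 8.86%, 6.54% and 3.51% under the 4 scalings, against 4, 1, 0 and 0 of the demethylase genes. With a pseudocount of 1 or 10, 16.8% or 11.5% of all genes and the same 4 demethylase genes were past 2-fold. The fold reduction of *Kdm5a* ran from 1.32 with the same median over abundant genes to 2.88 after the subtraction. After the subtraction *Kdm2b* had no positive value left in *Cxxc1*-deficient cells, so its ratio there has no meaning.

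**Figure D5:**
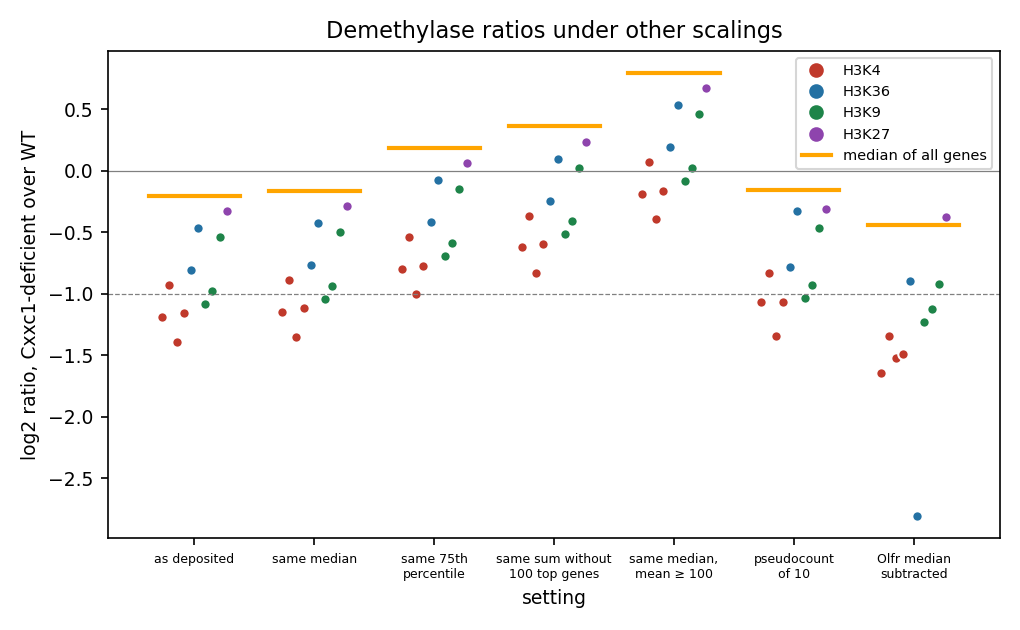
Log2 ratio of *Cxxc1*-deficient to WT of the 10 demethylase genes (points, coloured by mark) as deposited and in 6 other settings, with the median of all genes (orange line) and dashed and solid grey lines at -1 and 0. Under the 4 scalings the points move together with the orange line and all 10 stay below it, while 4 of 10 are below 0 with the same median over abundant genes; the lowest point in the last setting is *Kdm2b*, whose value there was raised to 1.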

How the data were processed

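Total RNA of DP thymocytes was made into mRNA libraries (NEBNext), with 1 library from WT and 1 from Cxxc1-deficient mice, and groups were taken from the sample titles. Per the labels, the submitters' processing notes name CASAVA 1.8.2, Bowtie 1.0.1, Partek and the build mm9. The authors kept uniquely mapped reads and deposited 1 score per gene and library, a normalized expression value rounded to whole numbers, whose unit and gene annotation are not given in the sources used here. Values were used as deposited, each raised to at least 1 for log2 ratios, and a gene was called at 2-fold, the threshold of the study. Depth is unknown. Level classes had edges of 50, 100, 200 and 500 of the mean of the 2 libraries. Genes were matched by symbol or alias, and coordinates, exons and transcript lengths came from GENCODE vM1 (NCBIM37, equal to mm9), and all 10 genes matched. Promoter windows came from RefSeq on GRCm38.p6, a different build.

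The members and gene lists were chosen with earlier results of these data known. Genes named in the text are the 10 members, the targeted gene and the listed genes with a mean of at least 100, unless stated, and 1 such gene is not reported here. Alternatives were 4 scalings, pseudocounts of 1 and 10, subtraction of the olfactory receptor median, other thresholds and other level classes. Scripts were tested on simulated data. No test was run. Python 3.11.15, numpy 2.4.6, pandas 2.3.3 and matplotlib 3.10.9 were used.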

Additional observations from a re-analysis of the deposited data

How the results depend on the processing

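The count of 10 lower demethylase genes was 4 with abundant genes (a mean of 100 or more) brought to one median, a factor of 2.0 on the Cxxc1-deficient library, and from 7 to 10 in the other 6 settings. The count of 4 genes at least 2-fold lower was 1 with the same 75th percentile and 0 with equal sums after leaving out the 100 most abundant genes and 0 with the same median over abundant genes. It was 7 after subtraction of the olfactory receptor median. At 1.5-fold it was 7, beside 31.9% of all genes, and at 3-fold it was 0, beside 6.3%. The median log2 ratio of the 10 genes, -0.95 as deposited, was -0.91 for equal medians, -0.56 for equal 75th percentiles, -0.39 for equal sums, -0.94 and -0.88 with pseudocounts of 1 and 10 and -1.29 after the subtraction, and reversed to 0.046 with the same median over abundant genes. For the scalings these changes follow from the factor applied. The H3K4 difference of -0.50 was -0.35 with Kdm2b counted as an H3K4 demethylase, -0.48 after the subtraction and -0.44 with a pseudocount of 10. It was -0.47 with means and -0.37 relative to level classes, the last chosen after seeing the data. Each of these values includes Kdm2b, which could not be told from the level of silent genes. The median relative to the level classes, -0.08, was -0.08 with 10 classes that hold equal numbers of genes or with genes above 0 in both, and -0.075 with the geometric mean as level. The number of reads behind these values is unknown, so the precision of a gene as low as Kdm2b is not known. No paired analysis was possible because only 1 library was made per genotype, without a shared replicate number.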

Other observations

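The genes for writing and erasing H3K27 methylation changed their proportion in the other direction from those of H3K4. The sum of Ezh1 and Ezh2 was 555 in WT against 166 in the deficient library, against 506 and 336 for Kdm6a and Kdm6b, so that the ratio was 1.1 in WT against 0.494 in the deficient library. Most of the sum was Ezh2 (477 and 132). Ezh1 had 78 and 34, and its value in the deficient library was under the 95th percentile of olfactory receptor genes (57). The Setd1 genes against Kdm5a and Kdm5b, with Kdm5c and Kdm5d left out, had the opposite course. Setd1a and Setd1b were at 0.286 of Kdm5a and Kdm5b in WT against 0.789 in the deficient library. Both ratios are taken within a library, were chosen after the values were seen and have no replicate. They describe mRNA, whereas the paper found SETD1 protein and total H3K4me3 lower in Cxxc1-deficient DP thymocytes.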
